A study of Mus musculus with 12 samples.

Results

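The cytosolic ribosomal protein genes were followed across 12 RNA sequencing libraries of mouse hepatocytes. Members were taken by name: every gene of the table that begins with Rpl or Rps and a digit, together with Rplp0, Rplp1, Rplp2 and Rpsa, but without names holding -ps and without the Rps6k kinases. The rule found 92 genes of the 52636 in the table. They comprise 43 proteins of the large subunit, 3 of its P stalk, 31 of the small subunit, 11 paralogues (near copies of a ribosomal protein, encoded elsewhere) and 4 other genes whose names fit. Of the 92, 84 reached at least 10 reads per 20 M (mega) in at least 3 libraries and were tested. Those 84 hold all 77 structural proteins, 5 paralogues, Rps19bp1 and Rpl37rt. The other 8 genes, Rpl10l, Rpl39l, Rpl3l, Rps3a2, Rps3a3, Rps27rt, Rpl6l and Rps12l1, were between 0 and 11 reads per 20 M in every library, and Rpl10l was listed at 0 throughout.

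The cells came from 6 mice: 3 wild-type animals (WT) and 3 labelled as Ptprk knockouts (KO). Ptprk encodes the receptor-type protein tyrosine phosphatase kappa. From each liver 1 library was made of hepatocytes low in fat and 1 of hepatocytes high in fat, which gives 2 genotypes by 2 fractions with 3 libraries in each of the 4 groups, and the pair of libraries with the same genotype and replicate number is from 1 mouse. All livers were fatty, and a Percoll gradient split the viable cells of each by lipid content. The labels used here give no diet, age, sex, kind of knockout allele or promoter.

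The cytosolic ribosome joins a small subunit, which reads the messenger RNA, to a large subunit, which forms the peptide bond. Its proteins are needed in equal numbers, and their messenger RNAs are among the most abundant of a cell. These messenger RNAs begin with a run of pyrimidines, the terminal oligopyrimidine (TOP) motif, through which the kinase complex mTORC1 and the RNA-binding protein LARP1 control how strongly they are translated and how long they last. Hepatocytes export much of the protein they make, and insulin and amino acids act on this system in liver.

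The bases around the start of transcription are shown because the TOP motif is what most ribosomal protein transcripts are known to share. Each line runs from 25 bases before to 20 bases from the annotated start (RefSeq, GRCm38.p6), and capitals mark the pyrimidine run found by a search for C followed by at least 5 pyrimidines, C or T, on the gene's strand. Rps6 is the small subunit protein phosphorylated after mTORC1 activation, Rplp2 a P stalk protein, and Rpl35 a large subunit protein with a long run of 18 bases. Rps27 and Rps27l, and Rpl22 and Rpl22l1, are pairs whose levels are compared further on. Rps2 had the most reads of all members (not divided by length), and Rplp0 is a common reference gene.
Rps6, chr4:86857348-86857392, minus strand: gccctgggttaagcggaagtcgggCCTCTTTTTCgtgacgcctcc
Rplp2, chr7:141447626-141447670, plus strand: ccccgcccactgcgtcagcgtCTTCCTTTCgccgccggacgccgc
Rpl35, chr2:39005112-39005156, minus strand: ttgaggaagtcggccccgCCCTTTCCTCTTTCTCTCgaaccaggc
Rps27, chr3:90213629-90213673, minus strand: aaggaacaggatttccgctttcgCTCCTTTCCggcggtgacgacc
Rps27l, chr9:66946061-66946105, plus strand: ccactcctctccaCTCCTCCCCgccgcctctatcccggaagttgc
Rpl22, chr4:152325701-152325745, plus strand: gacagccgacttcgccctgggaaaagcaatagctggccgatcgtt
Rpl22l1, chr3:28805483-28805527, plus strand: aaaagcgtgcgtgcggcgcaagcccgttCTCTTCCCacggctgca
Rps2, chr17:24720038-24720082, plus strand: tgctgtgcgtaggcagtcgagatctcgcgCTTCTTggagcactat
Rplp0, chr5:115559442-115559486, plus strand: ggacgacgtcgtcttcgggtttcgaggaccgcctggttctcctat
Rpl22 and Rps27l have 2 annotated starts each, of which the first in the table is shown. In Rps27l the marked run begins 12 bases before this start and also ends before it, so it lies outside the annotated transcript. An earlier run in that line is not marked.

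Of the 92 members, 67 had a promoter in the RefSeq table. A pyrimidine run of this kind lay between 10 bases before and 20 bases after a start in 37 of the 67 (55.2%), against 24.9% of 27025 genes with a promoter. Rplp0 and Rpl22 had none in that window, which says only that these letters are not there at the annotated start. Between 250 bases before and 50 after the start, CCGGAAG, the core bound by ETS factors such as GABP, was found on either strand for 38.8% of members and 9.93% of all genes. The core of the YY1 motif, ATGGCGG, was found for 16.4% and 4.69% in the same order. TATAAA, the TATA box, was found for 10.4% of members and 15.7% of all genes. These matches are descriptions of the letters and were not tested against the levels.

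Estimated depth was 15.1 to 25 M reads per library, and 3 reads corresponded to 2.4 to 3.98 reads per 20 M. Ptprk lay between 2174 and 2883 reads per 20 M in the 6 WT libraries and between 1117 and 1364 in the 6 KO libraries, and limma gave KO against WT differences of -1.13 on the log2 scale in low-fat cells (SE 0.0924, adjusted p = 0.000982) and of -0.98 in high-fat cells (SE 0.0924, adjusted p = 0.00448). The 8 hepatocyte markers summed to between 565146 and 648973 reads per 20 M in all libraries. The 9 Kupffer cell markers, none of them at 0 in all libraries, summed to 688 to 1411 (WT) and 498 to 779 (KO) in low-fat cells, and to 2437 to 12274 (WT) and 2243 to 10591 (KO) in high-fat cells. The 8 stellate cell markers summed to 127 to 641 in low-fat and 1919 to 3406 in high-fat cells of both genotypes, and the 8 sinusoidal endothelial markers to 1246 to 3456 and 5641 to 16689. Lower in high-fat cells were the 5 cholangiocyte markers, with sums of 370 to 506 in low-fat and 271 to 364 in high-fat cells. The 5 erythroid markers summed to 2676 to 3982 and 2106 to 2924, which overlap. Lymphocyte and neutrophil sums overlapped between fractions as well. Other cells express ribosomal protein genes too. Several of these sums differ between the fractions compared below, and their part in those comparisons was not tested. In bulk libraries fewer cells of a type and less RNA per cell cannot be told apart.

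Ribosomal protein genes took close to 1% of all values in every library. Their share was 0.908, 0.854 and 0.951% in WT low-fat replicates 1 to 3 and 0.909, 0.780 and 1.01% in the WT high-fat replicates. It was 0.926, 0.909 and 0.926% in KO low-fat and 0.866, 1.02 and 0.950% in KO high-fat replicates. KO high-fat replicate 2 had the highest share, WT high-fat replicate 2 had the lowest, and all 4 groups overlapped. Low-fat cells averaged 0.904 ± 0.0489% in WT and 0.920 ± 0.0102% in KO mice, and high-fat cells of 0.901 ± 0.117% and 0.944 ± 0.0754% (SD, n = 3 each), so the high-fat groups were the more variable. The 276 rows named as ribosomal protein pseudogenes took 0.00286 to 0.00413%, but reads shared between a gene and its processed copies may have been assigned either way, which makes single levels uncertain.

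Among large subunit proteins mean levels ran from 653 reads per 20 M for Rpl36a to 6655 for Rpl4, with a median of 1976, and among small subunit proteins from 887 for Rps15a to 7634 for Rps2, with a median of 1986. Per kilobase of annotated transcript, the scale on which genes can be compared, the median of the mean levels was 2772 reads per 20 M over the 77 structural genes. The P stalk, the flexible arm of the large subunit that recruits the GTPase factors of translation, had unequal transcript levels on that scale. Rplp1 reached 8010 ± 599 reads per 20 M per kb, the highest of the 77 genes, against 4593 ± 375 for Rplp0 and 4240 ± 353 for Rplp2 (SD over 12 libraries). These lengths are those of 1 annotated transcript a gene, which need not be the one made in liver.

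Members with a known role beside translation, or used as a reference, are given in turn. Rplp0 was at 6393, 5698 and 6604 reads per 20 M in WT low-fat, 6038, 5119 and 6795 in WT high-fat, 6766, 5991 and 6405 in KO low-fat and 5901, 6796 and 6343 in KO high-fat replicates 1 to 3. WT high-fat replicate 2 had its lowest value and KO high-fat replicate 2 its highest, and the 4 groups overlapped. Rps6 was at 1847, 1760 and 1991 in WT low-fat, 1741, 1547 and 2104 in WT high-fat, 1993, 1988 and 1910 in KO low-fat and 1751, 2239 and 1956 in KO high-fat replicates. Rps6 had its extremes in the same pair of libraries as Rplp0. Rpl5 and Rpl11, which bind 5S ribosomal RNA and hold MDM2 when ribosome assembly fails, ranged from 1795 to 2435 and from 1928 to 2476 reads per 20 M over the 12 libraries. Rpl5 was lowest in WT high-fat replicate 2 and highest in KO high-fat replicate 2, but Rpl11 was lowest in WT low-fat replicate 1 and highest in WT high-fat replicate 3. Rps27a, made as a fusion with ubiquitin, ranged from 1384 to 1932, and Rpsa, a small subunit protein also known as a laminin receptor, from 4249 to 5596, with its highest value in WT low-fat replicate 1. Among the 84 genes tested, the highest library exceeded the lowest by 1.21-fold to 2.93-fold, with a median of 1.34-fold.

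The main feature of the group was that its genes moved together from library to library, across the labelled groups. Libraries were first brought to a common scale with trimmed M-value means (TMM), which set the bulk of genes level, and each gene was compared with its own median over the 12 libraries. In WT low-fat replicates 1, 2 and 3, 40, 2 and 80 of the 84 genes lay above it, and in WT high-fat replicates 3, 0 and 82. In KO low-fat replicates the numbers were 71, 15 and 64, and in KO high-fat replicates 1, 81 and 65. Of all 16563 genes tested, 7177 to 9241 lay above their own median by library. Within each genotype and fraction there was on this scale a library in which at least 71 genes were above their median and one in which at most 15 were. WT high-fat replicate 2 was the lowest of all 12 libraries for 66 of 84 genes. With the deposited scaling alone it was the lowest for 67. The numbers above the median were then 33, 6 and 59 in WT low-fat, 40, 0 and 81 in WT high-fat, 39, 40 and 50 in KO low-fat and 8, 82 and 62 in KO high-fat replicates. The same count over all genes was not made with that scaling. On that scale the KO low-fat libraries were alike, so the split within that group depends on the scaling, while the spread within both high-fat groups and WT low-fat cells remained visible.

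**Figure D1:**
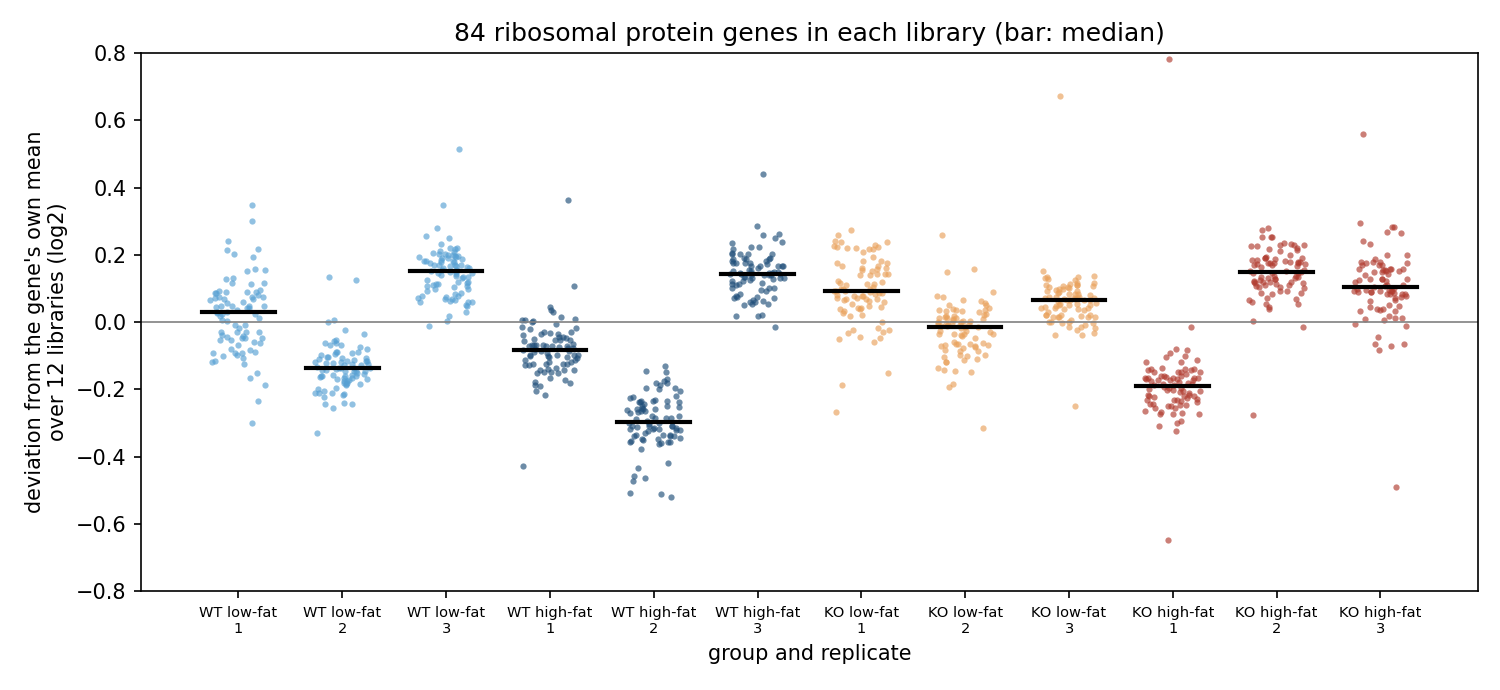
Each point is 1 of 84 ribosomal protein genes, plotted as its log2 deviation from its own mean over 12 libraries after TMM rescaling (y axis) in each library (x axis: group and replicate), with colours for the 4 groups and a black bar at the median. The medians run from -0.297 in WT high-fat replicate 2 to 0.1506 in WT low-fat replicate 3, and low and high libraries occur in every group.

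After TMM rescaling, the libraries with low ribosomal protein transcripts were those with a high summed level of nuclear-retained RNAs, mostly Malat1. The summed level of 5 long non-coding RNAs that stay in the nucleus (Malat1, Neat1, Kcnq1ot1, Meg3 and Mir22hg) was between 104539 and 154849 reads per 20 M in 5 libraries, namely WT low-fat replicate 2, WT high-fat replicates 1 and 2, KO low-fat replicate 2 and KO high-fat replicate 1. In these 5, 0 to 15 of the 84 ribosomal protein genes lay above their own median. In the other 7 libraries the sum was between 27936 and 62444, and 40 to 82 genes did. Of all 16563 genes tested, 7177 to 8270 did in the 5 libraries and 7637 to 9241 in the other 7. Malat1 alone was at 72093 to 106548 in the 5 libraries and at 21337 to 43007 in the other 7. Of the 5 RNAs 4 were tested. In WT high-fat replicate 1, which had the highest sum, 2 of the 4 lay above their own median, and in the rest of the 5 libraries 4 did. With the deposited scaling the ranges were 0 to 40 and 33 to 82 genes, which overlap. This split was noticed in the data, and the part of nuclear RNA in the level of the ribosomal protein genes was not tested. WT high-fat replicate 2 also had the highest share of mitochondrially encoded genes, 4.24% of all values against 1.59 to 3.07% in the others.

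**Figure D2:**
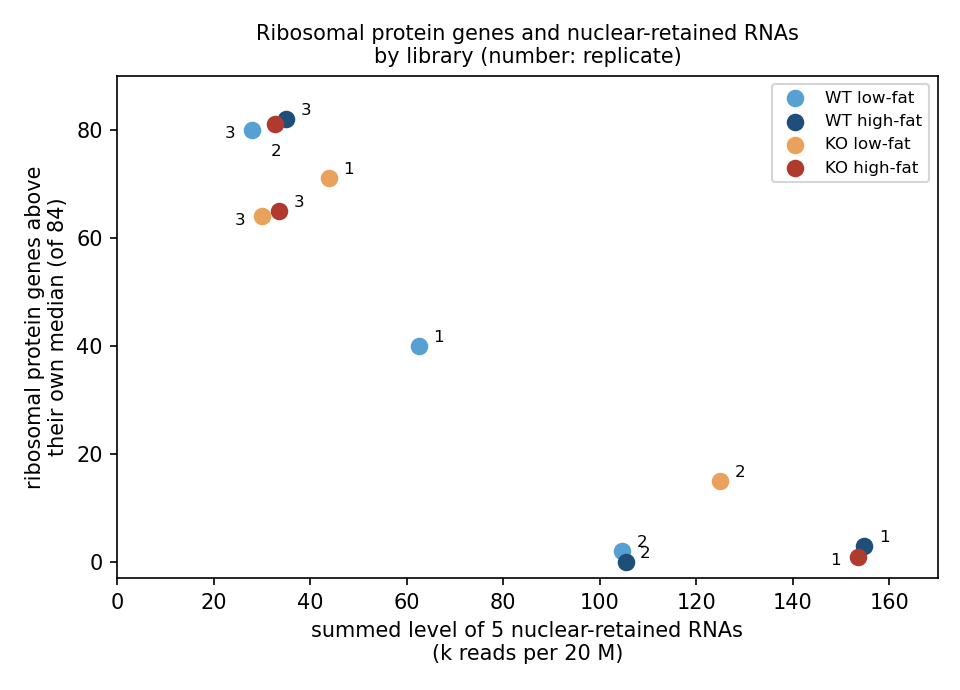
Number of the 84 ribosomal protein genes above their own 12-library median (y axis) against the summed level of 5 nuclear-retained RNAs in k reads per 20 M (x axis), 1 point a library, coloured by group and numbered by replicate. The 5 libraries with a sum above 100000 hold at most 15 genes above the median, and the other 7 hold at least 40.

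High-fat and low-fat cells of the same mouse differed in either direction. After TMM rescaling, 18, 9 and 43 of 84 genes were higher in the high-fat library of WT mice 1, 2 and 3, where 47.3, 37.8 and 46.5% of all genes tested were, with median log2 differences of -0.11, -0.17 and 0.0016 for the ribosomal protein genes. In KO mice 1, 2 and 3, 1, 83 and 56 of the 84 were higher, where 44.2, 52.0 and 42.7% of all genes were, with medians of -0.30, 0.17 and 0.042. KO mice 1 and 2 thus had opposite differences over almost the whole group. With the deposited scaling the genes higher in high-fat cells numbered 47, 9 and 78 in WT mice, where 62.2, 38.6 and 68.9% of all genes were higher, and 17, 83 and 56 in KO mice, where 65.8, 48.8 and 39.7% were. The members' median of WT mouse 1 was then 0.02 and that of all genes 0.10, against -0.11 and -0.03 after TMM rescaling, so both moved up by a like amount. KO mouse 1 had its high nuclear-retained sum in the high-fat library and KO mouse 2 in the low-fat library. In WT mouse 1 the sum was 62444 in low-fat and 154849 in high-fat cells. WT mouse 2, with 9 of 84 genes higher, had like sums in both, 104539 and 105346. The sums were 27936 and 34901 in WT mouse 3 and 29934 and 33512 in KO mouse 3. The part of these RNAs in the differences was not tested.

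**Figure D3:**
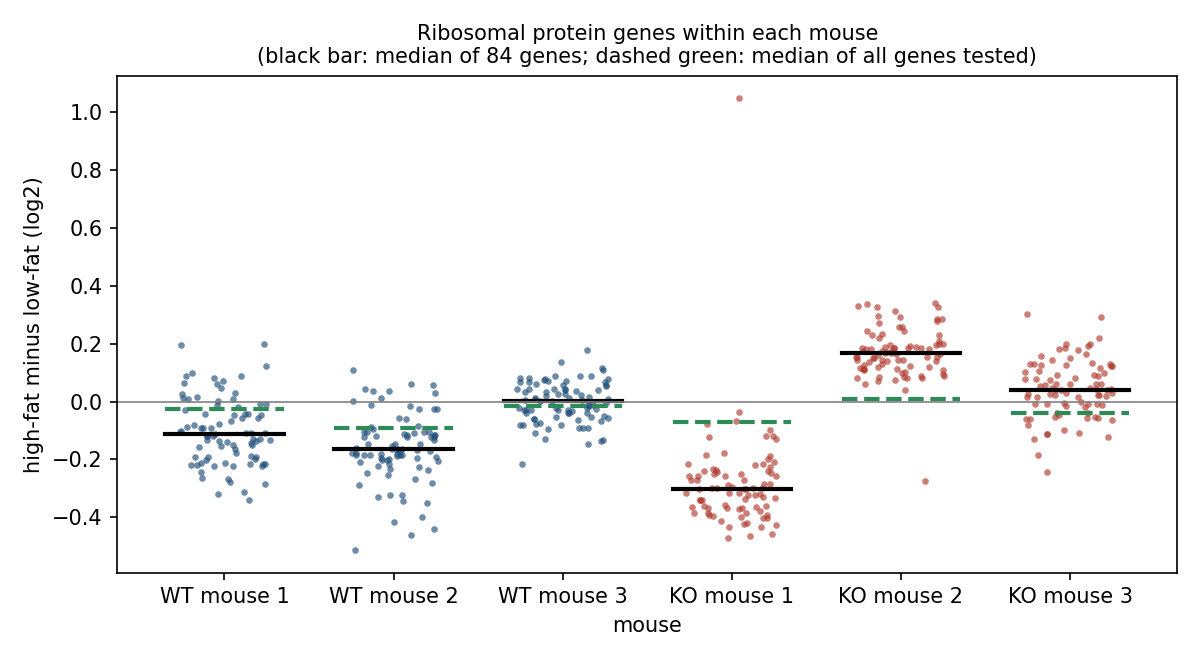
High-fat minus low-fat log2 difference (y axis) of 84 ribosomal protein genes in each of 6 mice (x axis) after TMM rescaling, with a black bar at their median and a dashed green line at the median of all 16563 genes tested. KO mouse 1 has a median of -0.3022 and KO mouse 2 of 0.1668.

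The first comparison set the libraries labelled KO against those of WT in low-fat cells. No ribosomal protein gene passed limma's test at an adjusted p under 0.05, where 0.00604% of all genes did, and 0 of the 84 had an unadjusted p under 0.05, against 1.64% of all genes. Their median log2 fold change, KO against WT, was 0.04, with 63 of 84 above 0, beside a median of 0.001 and 50.3% above 0 for all genes. Without WT low-fat replicate 2 the median was -0.04 and 17 of 84 were above 0. Of 23 alternatives to the main fit, this was the 1 that reversed the sign. Many of the 23 alter only the test or leave out a library of neither group. Those could move the median little or not at all. The 34 of 43 large subunit genes and 25 of 31 small subunit genes above 0 had medians of 0.05 each over their lists, so both subunits had like values.

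Rps27 was the gene with the largest positive value in this comparison. Rps27 (ENSMUSG00000090733), a zinc-binding protein of the small subunit, was at 1172, 1150 and 1222 reads per 20 M in WT low-fat and 1258, 1406 and 1314 in KO low-fat replicates 1 to 3. All KO low-fat libraries lay above all WT low-fat libraries, and it was the only member whose groups did not overlap after TMM rescaling, against 2.64% of all genes higher in this way. Rps27 differed by 0.18 on the log2 scale (SE 0.145, limma adjusted p = 1.0). Rps24, a small subunit protein mutated in some patients with Diamond-Blackfan anaemia, followed with 0.13 (SE 0.137). Among members averaging 100 reads per 20 M or more, the lowest values belonged to Rpl22l1 and Rps19bp1, a regulator of the deacetylase SIRT1. Rpl22l1 was at -0.27 (SE 0.221, limma adjusted p = 1.0) and Rps19bp1 at -0.15 (SE 0.165). Rpl37rt, at 14 to 41 reads per 20 M, lay between them at -0.18 (SE 0.322).

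In high-fat cells the same comparison gave positive values for nearly every member, none of them past the test. KO against WT, 82 of 84 genes were above 0 with a median log2 fold change of 0.10, beside 50.9% and 0.003 for all genes, while 0 passed limma's adjusted p (0.00604% of all genes) and 0 had an unadjusted p under 0.05 (1.97% of all genes). Without WT high-fat replicate 2 the median was -0.01 and 38 of 84 were above 0, and without KO high-fat replicate 1 the median was 0.23. The sign reversed in 1 of 23 alternatives, many of which could again move the median little or not at all. The 2 genes below 0 were Rpl22l1 at -0.12 (SE 0.221) and Rpl3, whose product lies near the peptidyl transferase centre, at -0.001 (SE 0.14). Rps27 was at 1244, 949 and 1378 reads per 20 M in WT high-fat and 1206, 1456 and 1365 in KO high-fat replicates. The groups overlapped, with the low value in WT high-fat replicate 2, and KO exceeded WT by 0.21 on the log2 scale (SE 0.145, limma adjusted p = 1.0). Rpl37rt, at 14 to 41 reads per 20 M over all libraries, followed with 0.197 (SE 0.322), and then Rpl36, of the large subunit, with 0.18 (SE 0.15). In no member did the groups fail to overlap, against 4.93% of all genes.

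**Figure D4:**
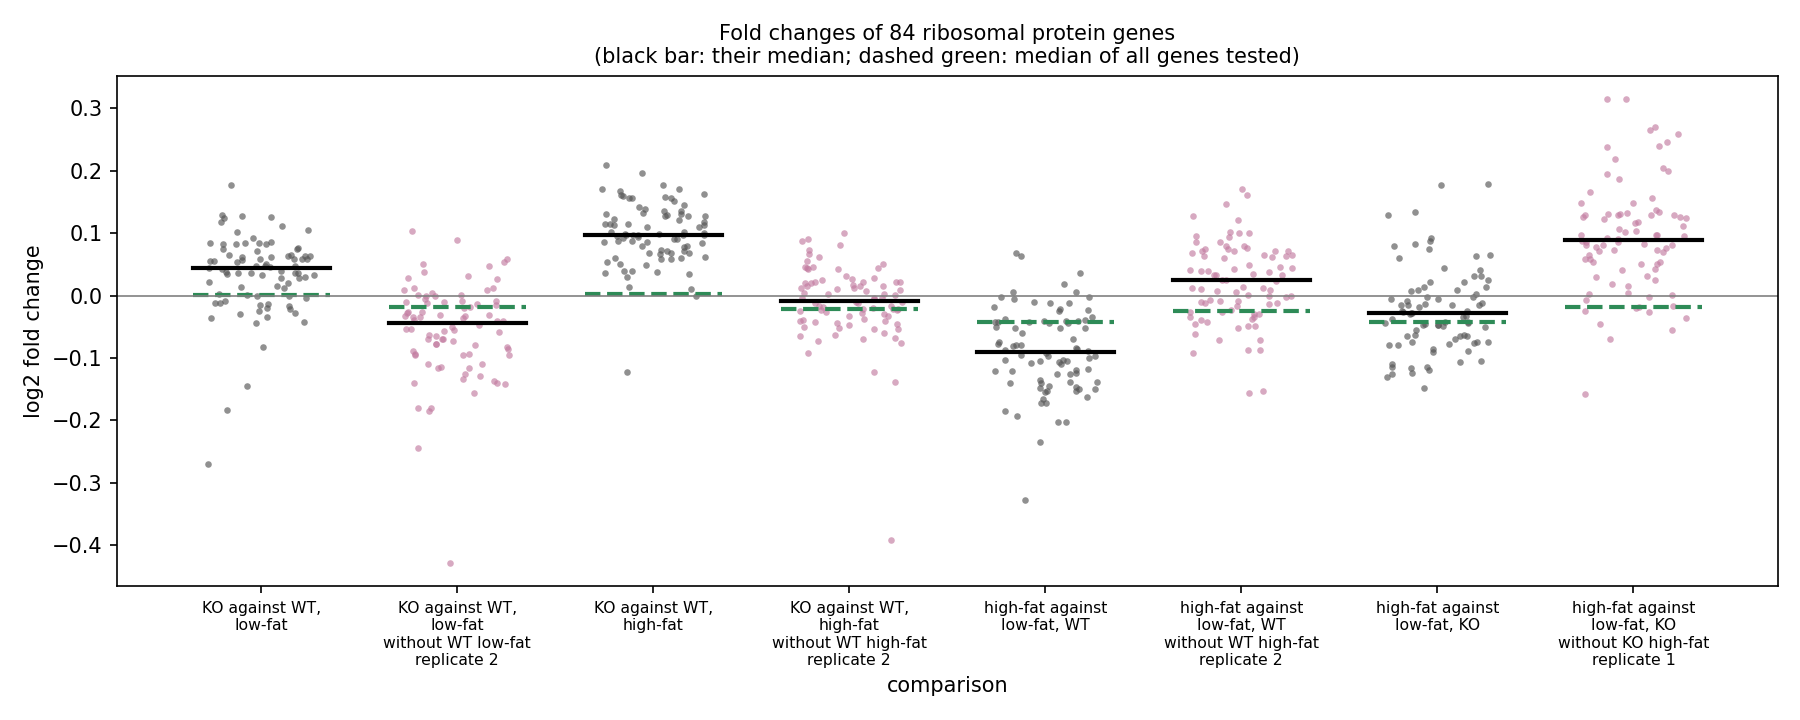
Log2 fold changes (y axis) of 84 ribosomal protein genes in 4 comparisons (x axis), each with all 12 libraries (grey) and without the library named (pink); black bars are medians of these genes and dashed green lines medians of all genes tested. Each median changes sign when the named library is left out, for example from 0.097 to -0.008 in KO against WT high-fat cells. Leaving out any other single library kept the sign. Over 23 alternatives the sign reversed in 1, or in 2 for high-fat against low-fat cells of KO mice. Many of the 23 could move a median little or not at all.

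The comparison of fractions asked how hepatocytes with more lipid differed from those with less. In WT mice 6 of 84 genes were above 0, high-fat against low-fat, with a median log2 fold change of -0.09, beside 43.3% and -0.04 for all genes. Without WT high-fat replicate 2 the median was 0.02 with 51 of 84 above 0, beside -0.025 for all genes. That was the 1 of 23 alternatives in which the members' median reversed its sign, but many of the 23 could hardly move it. With the deposited scaling the members' median was -0.01 with 37 above 0, and that of all genes moved with it, to 0.037. None passed limma's adjusted p, as for all genes (0.0%), and 1 had an unadjusted p under 0.05, where 11.5% of all genes did. That gene was Rpl7l1, a relative of Rpl7 with a role in ribosome assembly, at 1418, 1445 and 1232 reads per 20 M in WT low-fat and 1280, 1104 and 1296 in WT high-fat replicates. After rescaling its groups did not overlap, against 8.75% of all genes lower in this way, and high-fat minus low-fat it stood at -0.24 on the log2 scale (SE 0.101, limma adjusted p = 0.409). Rps19bp1 had the lowest value, -0.33 (SE 0.165, limma adjusted p = 0.48). The highest were Rpl17 at 0.07 (SE 0.174) and Rps21, a small protein of the small subunit, at 0.06 (SE 0.145).

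In KO mice 25 of 84 genes were above 0 with a median of -0.03, beside 40.4% and -0.04 for all genes. Without KO high-fat replicate 1 the median was 0.09 with 72 of 84 above 0, beside -0.019 for all genes. With the deposited scaling the members' median was 0.04 with 62 above 0, and that of all genes moved with it, to 0.025. Those were the 2 of 23 alternatives in which the members' median reversed its sign, but many of the 23 could hardly move it. None passed limma's adjusted p, where 0.894% of all genes did, and 0 had an unadjusted p under 0.05, against 8.95% of all genes. Among members averaging 100 reads per 20 M or more, the lowest values were those of Rpl6 (-0.15, SE 0.126) and Rpl3 (-0.13, SE 0.14). Both are of the large subunit. The highest among them were those of Rps21 (0.18, SE 0.145) and Rpl17 (0.13, SE 0.174). Rpl37rt, at 14 to 41 reads per 20 M, was at 0.177 (SE 0.322). The groups overlapped in every member, where they did not in 13.5% of all genes. With a term for each mouse, 0 members passed in either genotype, although all genes called then made up 1.02% in WT and 2.13% in KO mice. In that fit 2 members, Rps19bp1 and Rpl7l1, had an unadjusted p under 0.05 in WT mice, where 19.2% of all genes did, and 0 in KO mice, where 14.1% did.

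Whether the difference between fractions itself depended on genotype was tested as an interaction. None of the 84 genes passed limma's adjusted p, nor did any gene of the table (0.0%), and 0 members had an unadjusted p under 0.05 (0.145% of all genes). The median interaction was 0.06 with 79 of 84 above 0, beside 0.015 and 54.4% for all genes, but it was -0.05 without WT high-fat replicate 2, -0.01 without WT low-fat replicate 3 and -0.01 without KO high-fat replicate 2. Among members averaging 100 reads per 20 M or more, Rps19bp1 had the highest value, 0.28 (SE 0.233), followed by Rpl32 at 0.16 (SE 0.224), and Rps27a was at -0.03 (SE 0.23).

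Measured against the other members, rather than against all genes, the composition of the group varied little. Across the 12 libraries the SD of a gene's log2 level was 0.164 (median over 84 genes), and after the median of the 84 genes was taken from each library it was 0.072, beside 0.032 from counting reads alone. The second SD was below the first for 83 of 84 genes, and below 0.1 for 69. Rps10 kept closest to the others, with 0.033. The SD exceeded 0.2 for Rpl22l1 (0.248), Rps4l (0.337) and Rpl37rt (0.394), of which Rpl37rt, at 14 to 41 reads per 20 M, has a counting SD of 0.313.

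On this relative scale Rps27 separated the genotypes. Its level relative to the median of members was -0.021, -0.050 and -0.091 (log2) in WT low-fat, -0.023, -0.150 and -0.054 in WT high-fat, 0.075, 0.159 and 0.034 in KO low-fat and 0.013, 0.047 and 0.061 in KO high-fat replicates. All 6 KO libraries lay above all 6 WT libraries, which is so for 1 of 84 members and for 0.0483% of all genes measured in the same way. In the other direction 0 members and 0.205% of all genes separated. The subtracted median is that of the members, so it took shared movement out of them and brought it into genes without it. These shares of all genes are therefore no like background for the members. The nearest libraries of the genotypes, at -0.021 and 0.013, differ by less than the SD of 0.040 that counting reads gives this gene. The difference was small and did not pass limma's test on this scale, with log2 fold changes of 0.14 in low-fat (SE 0.0784, unadjusted p = 0.0966, adjusted p = 1.0) and 0.11 in high-fat cells (SE 0.0784, unadjusted p = 0.187, adjusted p = 1.0). The libraries come from 3 mice a genotype, and the pattern was picked out after the values were seen.

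Between fractions, 4 members were higher relative to the others in the high-fat library of all 6 mice and 10 were lower, against 9.32% and 11.9% of all genes. The 4 were Rpl11, Rpl12, Rpl17 and Rps21. Rps21 differed by 0.036, 0.296 and 0.055 (log2) in WT mice 1 to 3 and by 0.124, 0.157 and 0.270 in KO mice. On the relative scale its fitted log2 difference was 0.16 (SE 0.0808, limma adjusted p = 0.702) in WT and 0.21 (SE 0.0808, limma adjusted p = 0.471) in KO mice. The 10 lower genes were Rpl6, Rpl7a, Rpl7l1, Rpl10, Rpl14, Rpl23a, Rpl26, Rpl36al, Rpl37 and Rps16. Rpl6 differed by -0.179, -0.019 and -0.050 in WT and by -0.204, -0.064 and -0.156 in KO mice, and Rpl7l1 by -0.235, -0.210 and -0.063 and by -0.093, -0.091 and -0.141. As shares of the 84 members these are 4.76% and 11.9%, no larger than among all genes. The same limit holds for this background, since the members' median was taken from every gene.

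Some deviations were shared by the low-fat libraries of replicate 1 in both genotypes. In the low-fat library of replicate 1, Rps2 was high relative to the other members by 0.220 in WT and 0.236 in KO (log2), Rpsa by 0.246 and 0.221 and Rpl6 by 0.181 and 0.202. Rpl17 was low there, by -0.273 and -0.191. In no other library did Rps2 exceed 0.059 or Rpsa 0.071. The high-fat libraries of replicate 1, from the same mice, did not share this. There Rps2 was at -0.001 in WT and -0.01 in KO, Rpsa at 0.002 and 0.01, Rpl6 at 0.002 and -0.002 and Rpl17 at -0.036 and -0.035. The 2 low-fat libraries are of different mice, and the labels do not say what a number shared by both genotypes stands for.

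Paralogues of ribosomal proteins differed in how closely they kept to the group. Rps27l, a target of p53 that stands in for Rps27 in some ribosomes, was at a level per length near that of its partner, 3188 against 3652 reads per 20 M per kb. Rpl36al was above its partner Rpl36a, 2395 against 1353. Rpl7l1 (975) was below Rpl7 (3299) and Rpl22l1 (560) below Rpl22 (2814). Rps4l has no length in the annotation used, and its reads, 213 to 479 per 20 M, were below those of Rps4x, 2845 to 3900.

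Relative to the other members, Rpl22l1 and Rpl22 moved apart in several libraries, although in reads per 20 M both were lowest in WT high-fat replicate 2. Rpl22, an RNA-binding protein of the large subunit, is known to repress Rpl22l1, and the part of this in the levels here was not tested. Rpl22l1 (ENSMUSG00000039221) was at 363, 292 and 363 reads per 20 M in WT low-fat, 415, 220 and 352 in WT high-fat, 296, 247 and 292 in KO low-fat and 293, 252 and 321 in KO high-fat replicates. Rpl22 (ENSMUSG00000028936) was at 1193, 1313 and 1339, 1296, 1149 and 1497, 1213, 1498 and 1343, and 1200, 1588 and 1376 in the same order. Relative to the other members, Rpl22 was highest in KO low-fat replicate 2 (0.166) and KO high-fat replicate 2 (0.088), the 2 libraries in which Rpl22l1 was lowest (-0.306 and -0.439). Rpl22l1 was highest in WT high-fat replicate 1 (0.434) and WT low-fat replicate 1 (0.329), where Rpl22 was at -0.047 and -0.079. The groups of Rpl22l1 overlapped in every comparison. Its KO against WT value in high-fat cells turned positive, 0.06, without WT high-fat replicate 1.

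Rps4l showed a pattern by mouse. Rps4l (ENSMUSG00000063171), a close copy of Rps4x, was at 275, 253 and 413 reads per 20 M in WT low-fat, 242, 237 and 421 in WT high-fat, 251, 273 and 479 in KO low-fat and 213, 344 and 441 in KO high-fat replicates. Replicate 3 was the highest in all 4 groups, in both libraries of WT mouse 3 and of KO mouse 3, and KO high-fat replicate 2 followed. Rps4x itself was at 3463, 3166 and 3619, 3450, 2845 and 3748, 3629, 3529 and 3415, and 3398, 3900 and 3466, with no such order. Rps4l did not differ beyond its spread in any comparison, with log2 fold changes between -0.16 and 0.16 (SE 0.36) in the 4 comparisons of groups. Reads of Rps4l and Rps4x may have been divided between these near copies.

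**Figure D5:**
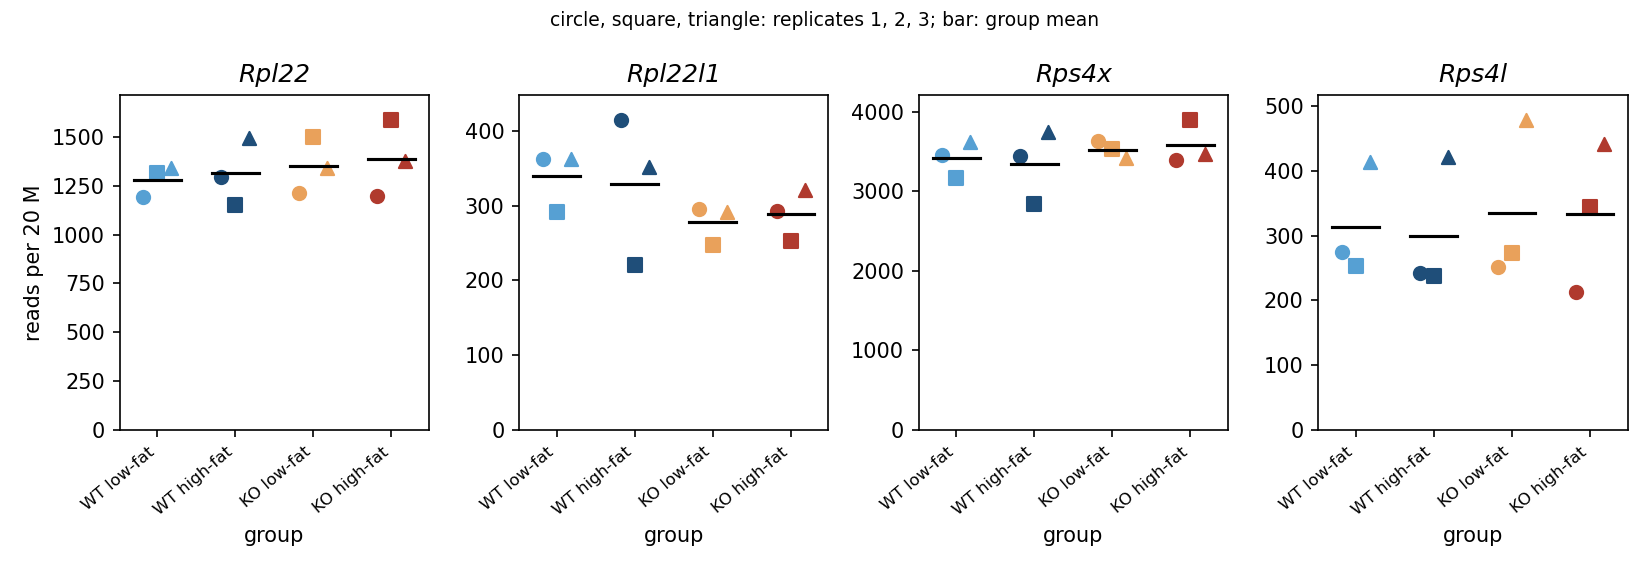
Levels in reads per 20 M (y axes, each from 0) of Rpl22, Rpl22l1, Rps4x and Rps4l by group (x axes), with replicates 1, 2 and 3 as circles, squares and triangles and a bar at the group mean. Rps4l is highest in replicate 3 of every group (413, 421, 479 and 441), and Rpl22l1 is lowest in replicate 2 of every group.

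Ribosomal proteins with other names, and other parts of the translation machinery, were set beside the members. Rack1, a scaffold on the small subunit, ranged from 3514 to 4908 reads per 20 M, and Fau, the precursor of a small subunit protein, from 1899 to 2562. Both were highest in KO high-fat replicate 2. KO against WT, the log2 difference of Rack1 was 0.07 in low-fat and 0.13 in high-fat cells (SE 0.137), and that of Fau 0.03 and 0.15 (SE 0.151). High-fat against low-fat, Rack1 was at -0.14 in WT and -0.07 in KO mice and Fau at -0.18 and -0.05, and neither gene passed limma's adjusted p in any of these comparisons.

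Transcripts with a TOP motif that encode no ribosomal protein, such as elongation and initiation factors, were listed beside the members with no test of likeness. Of these 19, 18 were above 0 in KO against WT low-fat cells (median 0.06) and 18 in high-fat cells (median 0.11), while 0 were above 0 between fractions in WT (median -0.14) and 1 in KO mice (median -0.12). Of all genes, 50.3, 50.9, 43.3 and 40.4% were above 0 in the same order of comparisons. In WT high-fat replicate 2, 0 of the 19 lay above their own median, and these counts were not repeated without a library. None passed limma's adjusted p in any of these comparisons. Between fractions in WT mice 1 had an unadjusted p under 0.05, where 11.5% of all genes did. Eif2s3x, an initiation factor subunit, had the largest value in WT (-0.29, SE 0.129, limma adjusted p = 0.427) and Eif4b in KO mice (-0.18, SE 0.135, limma adjusted p = 0.871). Mitochondrial ribosomal proteins, which are encoded in the nucleus without belonging to the cytosolic ribosome, were above 0 in 46, 68, 4 and 10 of 78 genes in the same order of comparisons, with medians of 0.02, 0.11, -0.16 and -0.07. In the 5 libraries with high nuclear-retained RNA, 1 to 27 of those 78 genes were above their own median, and in the other 7, 42 to 66. The low values of those libraries were therefore not shown to be particular to the cytosolic ribosome.

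Ribosome assembly factors and regulators of TOP transcripts were counted in the same way. Of 37 assembly factors, 13 and 21 were above 0 in KO against WT low-fat and high-fat cells, and 2 and 11 between fractions in WT and KO mice. Mdn1, the large ATPase that strips assembly factors from the nascent large subunit, had the largest value between fractions, 0.28 (SE 0.21, limma adjusted p = 0.62) in WT and 0.31 (SE 0.21, limma adjusted p = 0.844) in KO mice. Of 15 regulators such as Larp1 and the TSC complex, 11, 10, 3 and 2 were above 0 in the same order, and Eif4e, the cap-binding factor, was at -0.26 (SE 0.116, limma adjusted p = 0.427) in WT mice. Host genes of small nucleolar RNAs, whose spliced transcripts also start with a TOP motif, had the opposite sign between fractions, with 6 of 9 above 0 in WT and 7 in KO mice. Snhg1 was at 0.41 (SE 0.213, limma adjusted p = 0.489) in WT and Snhg12 at 0.48 (SE 0.193, limma adjusted p = 0.441) in KO mice. Beside these counts, 50.3, 50.9, 43.3 and 40.4% of all genes were above 0 in the same order, and the counts were not repeated without a library. No gene of these 3 lists passed limma's adjusted p in any of the 4 comparisons. In all, 5 values had an unadjusted p under 0.05, beside 1.64 to 11.5% of all genes by comparison.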

How the data were processed

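PolyA RNA was sequenced from 12 libraries of 6 mice. The deposited values are a score: per the values themselves, the authors brought every library to a total of 20 M (mega) reads and rounded each gene up, so no count model was used. The genome build is mm9, per the submitters' processing notes; aligner, counter, annotation and strandedness are not given in the sources used here. Depth was estimated from the steps of the low values, and intervals of counts cover counting error only.

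Genes with at least 10 in at least 3 libraries (16563) were rescaled by TMM and fitted as log2(value + 2) in limma 3.58.1 (R 4.3.3), with 4 group means over 12 libraries, an intensity trend and Benjamini-Hochberg adjustment over all genes tested, two-sided. Fold changes are on this scale. Tested on simulated data, the fit found 11.9 to 13.4% of genes changed by 0.5 (log2) and 46.3 to 59.7% of those changed by 1 in the 4 comparisons of groups, and 2.99 and 29.9% in the interaction.

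Low-fat and high-fat libraries pair by mouse, per the labels; their deviations correlated with r = 0.471 to 0.581 in WT and -0.0116 to 0.458 in KO mice. Same-numbered WT and KO libraries are different mice, with r = 0.252 to 0.397 in low-fat and -0.173 to 0.49 in high-fat libraries. Named members are the 2 largest rises and falls per comparison with a mean of at least 100, the 3 most abundant, genes named by role, paralogues, and the largest change in each related list; other genes were chosen after their values were seen. Some genes the rule names are not reported here. Members and lists were chosen with earlier results of these data known. Groups of 3 were not searched for outlying libraries. Alternatives are listed in the closing section.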

Additional observations from a re-analysis of the deposited data

How the results depend on the processing

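No ribosomal protein gene was called under any of the alternatives run: other pseudocounts, filters and scalings, no trend, only the libraries compared, a replicate block, a same-mouse correlation, and each library left out. The members' median log2 fold changes ranged, over all alternatives, from -0.044 to 0.112 and -0.008 to 0.229 (KO against WT, low-fat and high-fat), -0.201 to 0.024 and -0.099 to 0.088 (high-fat against low-fat, WT and KO) and -0.050 to 0.187 (interaction). In the same order the sign reversed in 1, 1, 1 and 2 of 23 alternatives and in 3 of 22. Settings that alter only the test leave a median as it was, and leaving out a library outside the groups compared moves it little. The counts of alternatives are therefore no measure of how firm a sign is. On simulated data the fit found 11.9 to 13.4% of all genes changed by 0.5 (log2) between groups; recovery among these abundant members alone was not measured.

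Counts of all genes called moved as follows, and the cause was not tested. KO against WT gave 1 gene in each fraction, 0 and 0 when scaled to the median of the ribosomal protein genes (an alternative chosen after seeing the data), and 0 in high-fat cells with only the libraries compared; leaving out a library gave 0 to 1 in high-fat cells. High-fat against low-fat in WT gave 0, 169 with the replicate block, 383 with a same-mouse correlation and 1 with a pseudocount of 10, and 0 to 118 without a library. In KO mice it gave 148, 353 with the replicate block, 528 with a same-mouse correlation, 45 with a filter of 50, 24 scaled to the ribosomal protein genes, 0 with only the libraries compared and 29 without a trend, and 0 to 314 without a library. The pairing by mouse changed no member's call.

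Single gene values under alternatives that keep all libraries numbered 380 over 32 results, of which 376 kept direction and call. Rpl3, KO against WT in high-fat cells, reversed to 0.014 with TMM computed without ribosomal protein genes. Ptprk lost its call when scaled to the ribosomal protein genes (limma adjusted p = 0.0524 in low-fat and 0.11 in high-fat cells) and with only the high-fat libraries (limma adjusted p = 0.469), at log2 fold changes between -1.16 and -0.98. Leaving out a library gave -0.391 to 0.055 for Rpl22l1 and -0.122 to 0.134 for Rpl3 (KO against WT, high-fat), -0.082 to 0.193 for Rpl17 and -0.070 to 0.172 for Rps21 (fractions, WT), and -0.166 to 0.15 for Rps27a (interaction). The KO low-fat share was 0.8958% for structural proteins only and 0.9387% without mitochondrially encoded genes.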
